A study of Mus musculus with 13 samples.

Results

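The Timm and Tomm genes encode the translocases that carry nuclear-encoded proteins into mitochondria. They were taken from the arrays as the probes whose gene name begins with Timm or Tomm followed by a digit, with pseudogenes left out. These were 38 of 55681 probes, and they named 22 genes, 12 Timm and 10 Tomm. The gastrocnemius, a calf muscle, was profiled in 13 adult male C57BL/6J mice on 2-colour Agilent arrays, 1 array per mouse. The 6 wild-type mice were littermates of the 7 mice with a UCP1 transgene in skeletal muscle. Per the labels, the mice were compared from 12 weeks of age, and both groups ate a purified low fat diet for 12 weeks. UCP1, found naturally in brown adipocytes, dissipates the proton gradient of the inner membrane as heat. The labels used here name neither the promoter of the transgene nor its founder lines. The study's stated interest was amino acid deprivation in this muscle and signalling through FGF21. Each value below is a log2 ratio of a mouse to a common reference pool hybridised on the same array, so it carries no absolute level. Differences are transgenic minus wild type, with the standard error of the fit over all genes, or over all probes for single probes. Pairs of genes have their own standard error, given there.

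Nearly all mitochondrial proteins are made in the cytosol and enter through the TOM complex of the outer membrane, whose receptors (Tomm20, Tomm22, Tomm70) bind precursors and whose pore is Tomm40. The small Tim chaperones of the intermembrane space guide hydrophobic precursors, TIM22 inserts carrier proteins into the inner membrane, and TIM23 passes precursors with a presequence to the matrix. Transport through TIM23 needs the membrane potential and a motor built around mitochondrial Hsp70 (Hspa9), which Timm44 tethers to the channel.

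Ucp1 itself was 3.23 ± 0.50 (log2) higher in transgenic mice (limma, adjusted p = 5.5e-05). The array labelled wild type 4 read 0.45, among the transgenic arrays (-0.20 to 0.85), whereas the other wild-type arrays read -4.23 to -2.82. In Ucp1 this array goes against its label. In Timm8a1, Timm23 and Timm17b, whose groups did not overlap, it read -0.51, 0.02 and 0.16, among the other wild-type arrays. The lack of overlap in these genes was found with this array counted as wild type, so these values cannot check its label. The array was kept in its labelled group, and without it the Ucp1 difference was 3.91 ± 0.20. The arrays lay on 4 slides, each with both groups, and array wild type 4 was the only wild-type array on slide 3. Probes well above background numbered 20643 to 24036 per array. All 12 skeletal muscle markers were above background on all 13 arrays, and 6 of them were lower and 1 higher in transgenic mice (median difference -0.25). Of the 7 white adipocyte markers measured, 6 were higher (median 0.81), and of 4 erythrocyte markers 3 were higher (median 0.62). Of 5 Schwann cell markers 2 were higher, of 6 fibroblast markers 2 and of 3 brown adipocyte markers 1. Of 7 endothelial and 5 macrophage markers 1 each was lower, and no marker of smooth muscle and pericytes or of satellite cells passed. Over all genes, 33.0% passed the threshold given below. The mean log2 ratio of the white adipocyte list ran from -0.66 to -0.02 in wild-type and from -0.23 to 0.39 in transgenic arrays. That of the brown adipocyte list ran from -0.87 to 0.72 and from -0.25 to 0.05. Cidea, a marker of that list, reached 1.80 in wild-type arrays, against their median of -1.54. The muscle list ran from 0.06 to 0.36 and from -0.25 to -0.01. None of these lists' parts in the differences below was tested. In whole muscle, fewer cells of a type and less RNA per cell cannot be told apart.

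Some sequences are shown first because they separate related members or probes. RefSeq promoters (GRCm38.p6, 250 bases before to 50 after the start) were found for 19 of the 22 genes. Timm8a1 and Timm8b are paralogues that differed between the groups in opposite directions, and Timm23 is the channel gene of TIM23. The 150 bases before each start follow, 5′ to 3′ on the strand of the gene, with motif matches in capitals. Timm8a1 lies at chrX:134541671-134541820 (minus strand), Timm8b at chr9:50603751-50603900 (plus strand) and Timm23 at chr14:32201892-32202041 (minus strand).
Timm8a1: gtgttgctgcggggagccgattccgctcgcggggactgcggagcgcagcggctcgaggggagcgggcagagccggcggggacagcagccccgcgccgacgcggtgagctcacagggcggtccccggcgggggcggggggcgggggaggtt
Timm8b: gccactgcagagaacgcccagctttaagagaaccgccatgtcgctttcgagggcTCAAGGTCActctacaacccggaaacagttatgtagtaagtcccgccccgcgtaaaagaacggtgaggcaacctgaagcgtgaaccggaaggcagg
Timm23: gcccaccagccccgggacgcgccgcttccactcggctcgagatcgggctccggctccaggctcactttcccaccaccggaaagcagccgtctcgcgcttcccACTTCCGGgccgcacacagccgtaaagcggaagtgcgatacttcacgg
The Timm8a1 stretch held 79.3% G and C and 22 CG pairs, the Timm8b stretch 56% and 11, and the Timm23 stretch 68% and 18. The capitals in Timm8b are the motif TCAAGGTCA of oestrogen-related receptors, which 0.423% of all 32851 promoters of this length held on either strand. Those in Timm23 are the reverse complement of the ETS motif CCGGAAGT, the type bound by GABP, held by 3.89% of promoters. The ETS motif was in 5 of the 23 promoters of Timm and Tomm genes, counting the 3 TIM genes with older names below, namely those of Timm23, Timm10, Timm8a2, Timm10b and Timm29. In Timm10 it began 17 bases after the start. The motif TGATGNAA, which the stress factor ATF4 binds with C/EBP partners, was in 3.97% of all promoters and in 0 of the 23. TGACGTCA, the cyclic AMP response element, was in 1.79% and also in 0 of the 23. The NRF1-type motif GCGCATGCG, held by 1.75%, was in 1 of the 23, that of Timm13. These are descriptions of letters in a window.

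Of the 22 genes, 20 were measured, meaning that a probe was well above background in the mouse channel on at least 6 arrays. These were 11 Timm and 9 Tomm genes. The 31 probes behind them were above background on all 13 arrays, so no member was measured only through the group where it was high. Timm8a2, a copy of Timm8a1, was dim, with 0 of 13 arrays well above background. Tomm20l, a copy of Tomm20, had 1 probe above background on 1 and the other on 2 transgenic arrays and on 0 wild-type arrays. Over the 17257 genes tested, 5695 or 33.0% differed between the groups at an adjusted p under 0.05 (limma, Benjamini-Hochberg), 16.9% being higher and 16.1% lower in transgenic mice. Among the Timm genes 2 were higher, Timm8a1 and Timm10, and 3 were lower, Timm23, Timm8b and Timm17b. The other 6 did not pass, and the median difference was 0.04. Among the Tomm genes 1 was higher, Tomm22, and 1 was lower, Tomm7. The other 7 did not pass, and the median was -0.05, against 0.00 over all genes. The 7 of 20 members called are thus a share near that of all genes, with no common direction. Without the array labelled wild type 4, 2 Timm genes were higher and 2 lower, and 1 Tomm gene was higher and 1 lower.

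**Figure D1:**
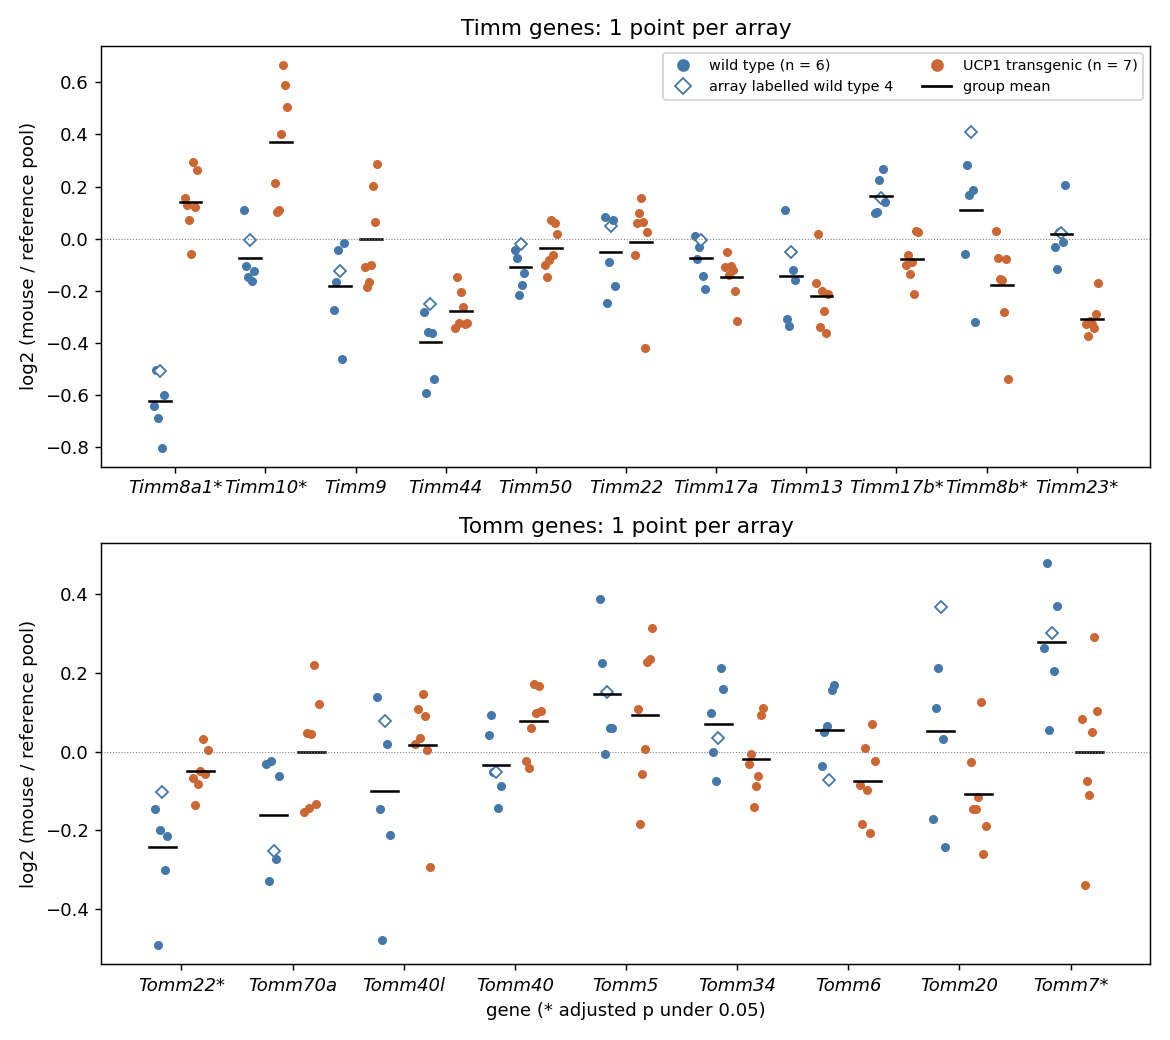
Log2 ratio of each mouse to the reference pool (vertical axis) for the 11 Timm and 9 Tomm genes, 1 point per array, with the group mean as a bar and the array labelled wild type 4 as an open diamond. In Timm8a1, Timm17b and Timm23 the points of the 2 groups do not overlap, and in the other 17 genes they do.

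The small Tim chaperones of the intermembrane space held both the largest rise and a fall. Timm8a1, which with Timm13 escorts hydrophobic precursors such as that of Timm23, lay between -0.80 and -0.51 in wild-type mice (median -0.62) and between -0.06 and 0.29 in transgenic mice (median 0.13). Every transgenic mouse was above every wild-type mouse. The difference was 0.77 ± 0.07, or 1.70-fold (limma, adjusted p = 8.6e-08), and it was 0.63 to 0.89 within each of the 4 slides. Of all genes tested, 98.7% had a difference at or below that value. Groups without overlap were found in 14.7% of all genes and in 3 of the 20 members.

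Timm10, which forms the main small Tim complex with Timm9, ran from -0.16 to 0.11 in wild-type mice (median -0.12) and from 0.10 to 0.67 in transgenic mice (median 0.40). Of the 7 transgenic mice 6 were above every wild-type mouse. The difference was 0.44 ± 0.09 (limma, adjusted p = 0.0010). The transgenic arrays read 0.10 to 0.21 on slides 1 and 2 and 0.40 to 0.67 on slides 3 and 4, so the difference within slides ran from 0.05 on slide 1 to 0.69 on slide 4. The slide's part in the size of this difference was not tested, but with the slide as a block it still passed. Timm9 was 0.18 ± 0.09 higher and did not pass (limma, adjusted p = 0.14).

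Timm8b, the paralogue of Timm8a1, ran from -0.32 to 0.41 in wild-type mice (median 0.18) and from -0.54 to 0.03 in transgenic mice (median -0.16), so the groups overlapped. Its difference was -0.29 ± 0.11 (limma, adjusted p = 0.043). The highest wild-type value was that of the array labelled wild type 4, and without it the difference was -0.23 ± 0.11 and did not pass (limma, adjusted p = 0.11). Leaving out any of wild type 2, 3 or 5 or transgenic 3, 4, 5 or 7 also ended the call, and within slide 1 the difference was 0.04. Timm13, the usual partner of Timm8 proteins, differed by -0.08 ± 0.08 (limma, adjusted p = 0.50).

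In the TIM23 channel, which takes presequence proteins, Timm23 and Timm17b were lower. Timm23, the pore-forming subunit, lay between -0.12 and 0.21 in wild-type mice (median 0.01) and between -0.38 and -0.17 in transgenic mice (median -0.33). The groups did not overlap. The difference was -0.32 ± 0.06 (limma, adjusted p = 4.9e-04), and it was -0.36 to -0.27 within the 4 slides. Timm17b, a structural subunit of the same channel, lay between 0.10 and 0.27 in wild-type mice (median 0.15) and between -0.21 and 0.03 in transgenic mice (median -0.09), again without overlap. The difference was -0.24 ± 0.06 (limma, adjusted p = 0.0041). Timm17a, its alternative copy in the channel, differed by -0.08 ± 0.06 (limma, adjusted p = 0.38), with -0.11 to -0.08 on the 4 slides. Timm50, the receptor of the channel, differed by 0.08 ± 0.06 and Timm44, the tether of the motor, by 0.12 ± 0.07, and neither passed. Timm22, the pore of the carrier translocase, differed by 0.04 ± 0.09 with an interval of -0.14 to 0.23 (95%). The array transgenic 6 was far below the other transgenic arrays in that gene, at -0.42 against -0.06 to 0.16.

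**Figure D2:**
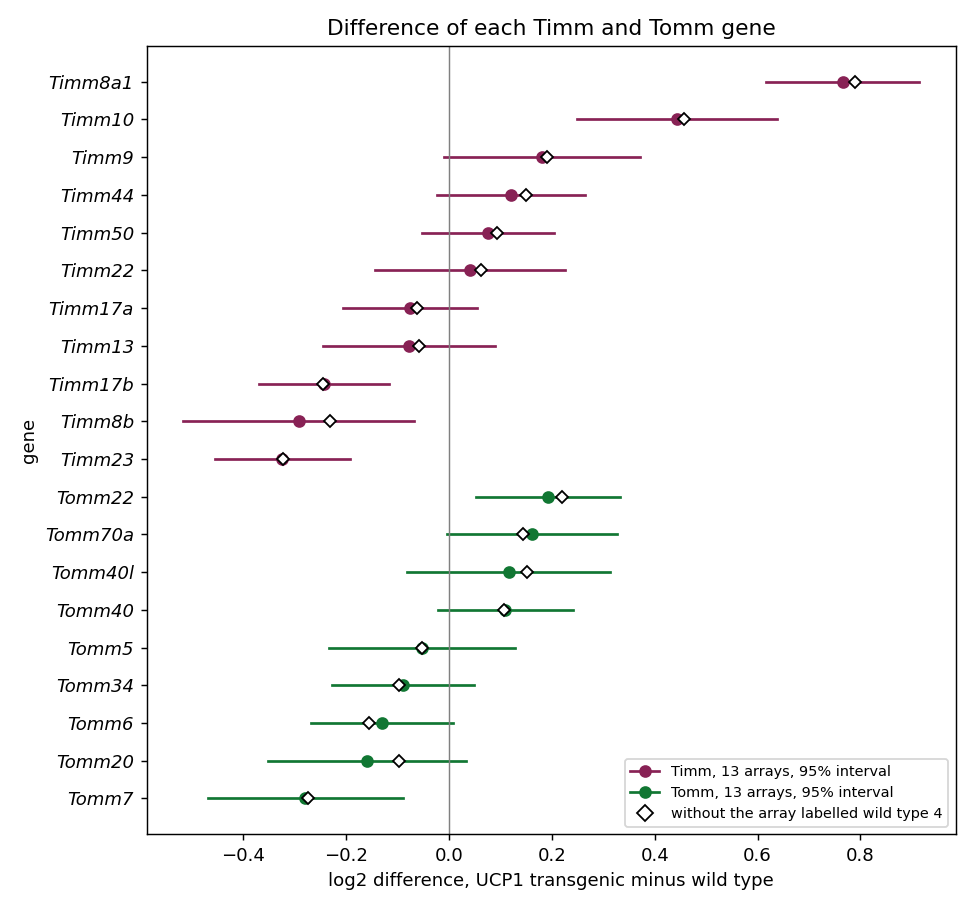
Log2 difference between transgenic and wild-type mice (horizontal axis) for each of the 20 measured genes, with its 95% interval as a line and the value without the array labelled wild type 4 as an open diamond. Timm8a1 stands furthest to the right at 0.77 and Timm23 furthest to the left at -0.32, and the open diamonds lie inside the intervals.

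In the outer membrane Tomm22 was higher and Tomm7 lower. Tomm22, the central receptor that also organises the complex, ran from -0.49 to -0.10 in wild-type mice (median -0.21) and from -0.13 to 0.03 in transgenic mice (median -0.06). Of the 7 transgenic mice 6 were above every wild-type mouse. The difference was 0.19 ± 0.07 (limma, adjusted p = 0.032). The call was lost on leaving out any of wild type 2 or 5 or transgenic 4, 5 or 7, with differences of 0.14 to 0.19, and with the slide as a fixed block, at 0.17 (limma, adjusted p = 0.057). Tomm70a, the receptor for carrier precursors that arrive with cytosolic chaperones, differed by 0.16 ± 0.08 (limma, adjusted p = 0.12). Tomm20, the presequence receptor, differed by -0.16 ± 0.09 (limma, adjusted p = 0.20). In Tomm20 the array labelled wild type 4 was again the highest, at 0.37, and without it the difference was -0.10 ± 0.09.

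The pore genes did not pass in the main comparison. Tomm40 differed by 0.11 ± 0.06 and Tomm40l, its paralogue, by 0.12 ± 0.09, with intervals of -0.02 to 0.24 and -0.08 to 0.31. Tomm40 did pass with the mean over its probes, at 0.23 (limma, adjusted p = 0.013), and with Agilent's own log ratio, at 0.21 (limma, adjusted p = 0.0068). Tomm7, a small subunit that acts on the assembly of the complex, ran from 0.05 to 0.48 in wild-type mice (median 0.28) and from -0.34 to 0.29 in transgenic mice (median 0.05). The groups overlapped, with 4 of 7 transgenic mice below every wild-type mouse. The difference was -0.28 ± 0.09 (limma, adjusted p = 0.022), and without wild type 2 it was -0.24 and did not pass (limma, adjusted p = 0.060). The other small subunits, Tomm6 and Tomm5, differed by -0.13 ± 0.07 and -0.05 ± 0.09, and Tomm34, a cytosolic co-chaperone that carries the name but is no part of the pore complex, by -0.09 ± 0.07. None of these 3 passed.

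Several probes per gene gave a further reading of the same mice. Of 10 genes with several probes above background, the probes had the same sign in 9, all but Tomm5, and the same call in 7. In none did probes pass in opposite directions. Fitted one by one, 31.8% of the 22716 probes passed, and 12 of the 31 member probes did, 6 higher and 6 lower. The other Timm10 probe gave 0.66 ± 0.10 and the other Timm23 probe -0.34 ± 0.07. The other Timm8a1 probe gave 0.27 ± 0.08 (limma, adjusted p = 0.014), well under the 0.77 of the brighter one, and the 2 probes lie at X:131072684-131072743 and X:131071864-131071923 (mm9). The other Timm17b probe gave -0.21 ± 0.09 and did not pass (limma, adjusted p = 0.083). In Tomm40 the dimmer probe rose by 0.35 ± 0.09 (limma, adjusted p = 0.0035), unlike the brightest.

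**Figure D3:**
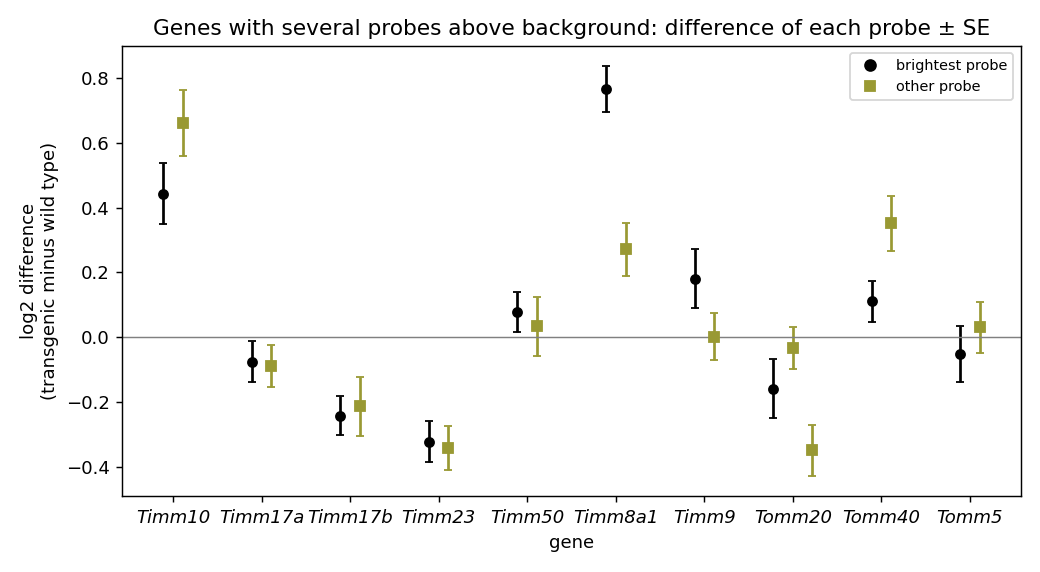
Log2 difference between transgenic and wild-type mice (vertical axis) with its SE for each probe of the 10 genes that had several probes above background. Both probes of Timm23 sit near -0.3, while those of Timm8a1 are apart at 0.77 and 0.27.

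In Tomm20 the 3 probes gave -0.16, -0.03 and -0.35. The first and the last are assigned to the same 60 bases, chr8:129458446-129458505 (mm9, minus strand), one for a RefSeq transcript and the other for a cDNA clone. They differ at 3 positions, counted from the 5′ end of the probe as deposited, A13G, A17C and G57A. Their first 30 bases are shown, with the 2 of these positions that fall there in capitals. Position 57 lies outside the stretch shown. The part of these letters in the call was not tested.
Tomm20 transcript probe: gtgtttgtgaaaActgAgcattaaaacctt
Tomm20 clone probe: gtgtttgtgaaaGctgCgcattaaaacctt
The transcript probe gave -0.16 ± 0.09 (limma, adjusted p = 0.20) and the clone probe -0.35 ± 0.08 (limma, adjusted p = 0.0019). The probe at chr8:129458883-129458942 gave -0.03 ± 0.06. Which of them follows the Tomm20 transcript was not tested.

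Whether related members differed from each other in their response was tested within arrays in 5 pairs, by exact permutation of the group labels over all 1716 assignments (two-sided, adjusted over the 5 pairs). The standard error of a pair comes from the variances of its values in each group, not from the limma fit. The brightest probe stood for each gene, and no pair was run with the mean over probes. The other probes of Timm8a1 and Tomm20 differed as given above, and the other Timm9 probe by 0.0009 ± 0.07 (limma, adjusted p = 0.99). The gap between Timm8a1 and Timm8b moved by 1.06 ± 0.15, from -0.99 to -0.28 in wild-type mice to 0.10 to 0.80 in transgenic mice. The groups did not overlap, which gives the smallest p these assignments allow (exact p = 5.8e-04, adjusted 0.0029). Without the array labelled wild type 4 the move was 1.02. Timm9 fell relative to Timm10 by 0.26 ± 0.10 (exact permutation p = 0.017, adjusted 0.029), and Tomm20 relative to Tomm22 by 0.35 ± 0.12 (exact permutation p = 0.012, adjusted 0.029). Both kept an adjusted p of 0.048 without the array labelled wild type 4 (exact permutation), and both lost it in some other leave-one-out fits. Timm9 against Timm10 lost it without wild type 2, 3 or 6 or transgenic 4, 5 or 6, and Tomm20 against Tomm22 without wild type 2 or transgenic 4 or 6. Timm17a against Timm17b moved by 0.17 ± 0.08 and did not pass (exact permutation p = 0.058, adjusted 0.072), although it did without transgenic 7, at 0.21 (exact permutation, adjusted p = 0.022). Tomm40 against Tomm40l moved by -0.01 ± 0.12 (exact permutation p = 0.96).

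Those permutations exchange labels across slides. In an alternative added after seeing the data, the slide was a block and labels were exchanged only within slides, which leaves 162 assignments and a smallest p of 0.0062. Timm8a1 against Timm8b then moved by 1.06 (exact permutation, adjusted p = 0.031), with 0.75 to 1.25 within the 4 slides. Tomm20 against Tomm22 moved by -0.34 (exact permutation, adjusted p = 0.031), with 0.04 on slide 1 and -0.57 to -0.35 on the others. Timm9 against Timm10 moved by -0.22 and did not pass (exact permutation, adjusted p = 0.069), with 0.08 on slide 1 and -0.36 to -0.28 on the others. Timm17a against Timm17b moved by 0.14 and passed (exact permutation, adjusted p = 0.031), with 0.08 to 0.21 within slides.

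**Figure D4:**
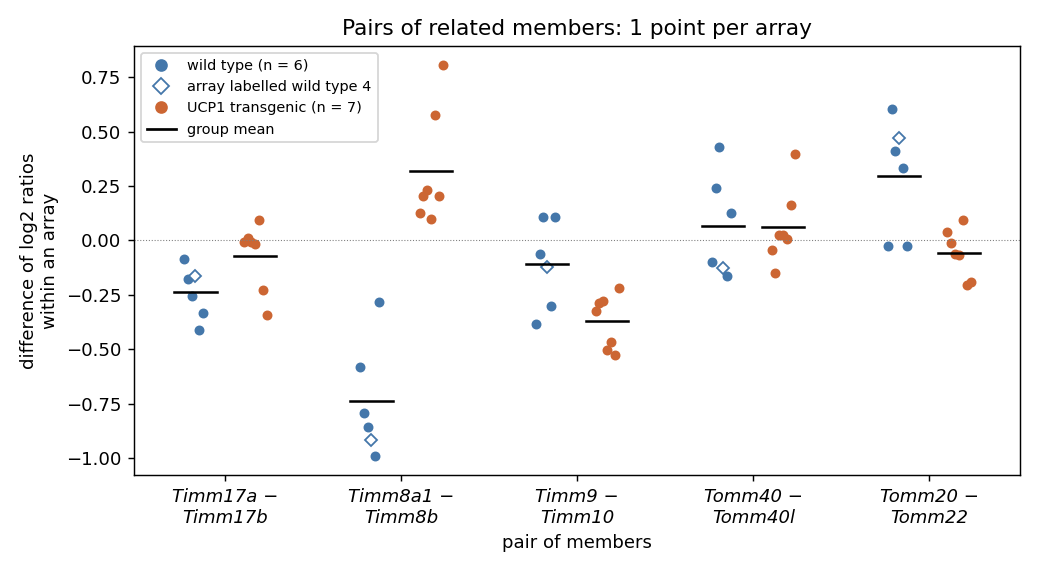
Difference between the log2 ratios of 2 related genes within each array (vertical axis) for 5 pairs, 1 point per array, with group means as bars. In Timm8a1 minus Timm8b all 7 transgenic points lie above the 6 wild-type points, and in the other 4 pairs the groups overlap.

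Of the genes that work with the translocases, all 34 of the list that the array names were measured, 4 of them higher and 7 lower, with a median of -0.02. This is a share near the 33.0% called over all genes. The 34 include Timmdc1, which is named alike but belongs to complex I assembly, at 0.04 ± 0.08 and not called. The largest rise was in the import motor. Hspa9, the motor's Hsp70, lay between -0.94 and -0.59 in wild-type mice and between 0.14 and 0.65 in transgenic mice, a difference of 1.14 ± 0.08 (limma, adjusted p = 3.6e-09). Its nucleotide exchange factors Grpel1 and Grpel2 rose by 0.26 ± 0.06 and 0.24 ± 0.09. With the mean over their probes in place of the brightest, they were at 0.099 and 0.13 and neither passed (limma, adjusted p = 0.17 and 0.080). The Grpel2 call was also lost without any of wild type 2, 5 or 6 or transgenic 1, 2, 4 or 5, at 0.19 to 0.25. The motor's J-domain proteins Dnajc19 and Dnajc15 fell by 0.26 ± 0.08 and 0.22 ± 0.06, and Pam16 differed by -0.02 ± 0.06. With the mean over probes Dnajc19 was at -0.13 and did not pass (limma, adjusted p = 0.080). It also did not pass with Agilent's own log ratio, at -0.17, or Cy5 alone, at -0.24 (limma, adjusted p = 0.053 and 0.054). Dnajc15 did not pass with the authors' deposited values, at -0.12 (limma, adjusted p = 0.25). Of the 6 motor partners 3 were higher and 2 lower, where 16.9% of all genes were higher and 16.1% lower. Of these calls, those of Grpel1, Grpel2 and Dnajc19 did not hold with the mean over probes.

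Of 6 peptidases that trim imported proteins 1 was higher and 1 lower, again near the share of all genes. Immp2l and Immp1l, the subunits of the inner membrane peptidase, differed by 0.29 ± 0.06 (limma, adjusted p = 0.0014) and -0.47 ± 0.10 (limma, adjusted p = 0.0014). Pmpca and Pmpcb, the matrix processing peptidase, differed by 0.11 ± 0.07 and 0.03 ± 0.08 and did not pass. In the MICOS complex of the cristae, Minos1 and Chchd3 fell by 0.31 ± 0.08 and 0.23 ± 0.08, and the other 4 members did not pass. These 2 of 6 are a share near the 33.0% called over all genes. With the authors' deposited values Minos1 was at -0.19 and did not pass (limma, adjusted p = 0.17). The Chchd3 call was lost without any of wild type 1, 3, 4 or 6 or transgenic 3, 4 or 6, at -0.23 to -0.18, and with the mean over probes it was -0.15 (limma, adjusted p = 0.075). None of 4 genes of outer membrane sorting and assembly (Samm50, Mtx1, Mtx2, Mtx3) passed, with differences of 0.10 to 0.21, nor did Chchd4 and Gfer of the disulfide relay, at -0.04 ± 0.07 and 0.00 ± 0.07.

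Among the cytosolic chaperones that hand precursors to the outer membrane, 2 of 5 were lower. Over all genes, 33.0% were called in either direction and 16.1% were called lower. Hsp90aa1 fell by 0.72 ± 0.23 (limma, adjusted p = 0.021) and Dnaja1 by 0.58 ± 0.21 (limma, adjusted p = 0.044), with wild-type spreads of 0.72 and 0.63 (SD, n = 6). On slide 3, whose one wild-type array was that labelled wild type 4, both ran the other way, at 0.60 and 0.43. Without that array the differences were -0.97 ± 0.17 and -0.78 ± 0.18. Both calls were lost without any of wild type 1, 5 or 6, with differences of -0.64 to -0.45. Without wild type 2 or transgenic 3, 5, 6 or 7 the Dnaja1 call alone was lost. With Agilent's own log ratio neither Hsp90aa1 nor Dnaja1 passed (limma, adjusted p = 0.081 and 0.13). Dnaja1 also did not pass with Cy5 alone or the authors' deposited values (limma, adjusted p = 0.072 and 0.078). The same held for Dnaja1 with the mean over probes or no filter on dim probes (limma, adjusted p = 0.052 and 0.071).

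**Figure D5:**
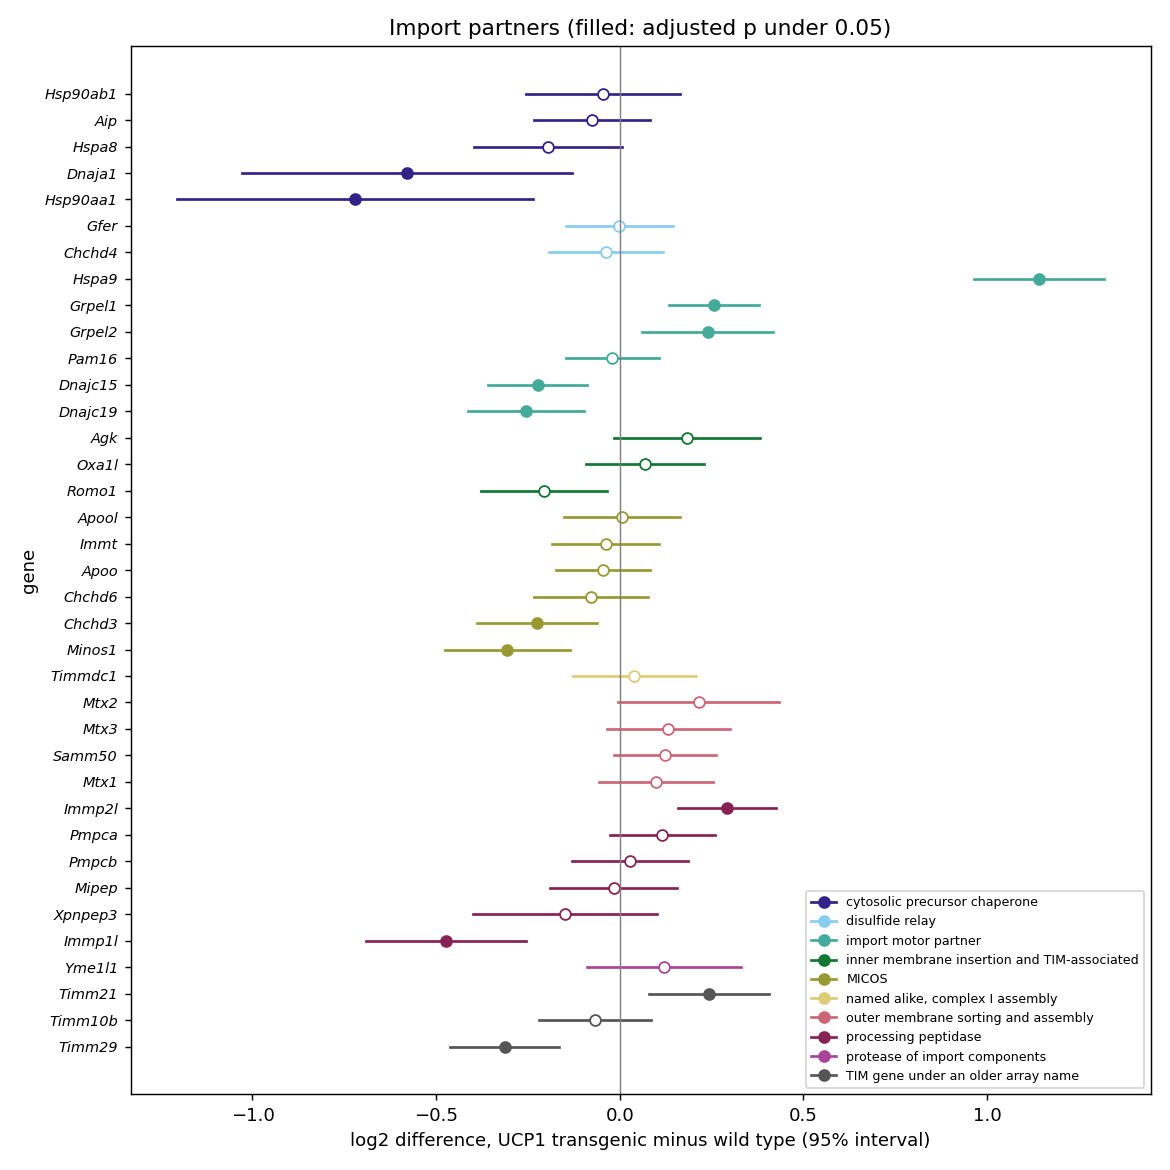
Log2 difference between transgenic and wild-type mice (horizontal axis) with its 95% interval for 34 import partners and 3 TIM genes with older names, coloured by role, filled where the adjusted p was under 0.05. Hspa9 stands apart at 1.14, and Hsp90aa1 and Dnaja1 have the widest intervals.

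The 3 TIM genes listed on the array under older names fall outside the rule on gene names. Timm21, a TIM23 subunit, was 0.24 ± 0.08 higher (limma, adjusted p = 0.021), and without wild type 5 it was 0.20 and did not pass. With the authors' deposited values Timm21 was at 0.23 and did not pass (limma, adjusted p = 0.075). Timm29, a subunit of TIM22, was 0.31 ± 0.07 lower (limma, adjusted p = 0.0019), its transgenic arrays at -0.20 to 0.08 below the wild-type arrays at 0.10 to 0.44. Timm10b, a small Tim bound to TIM22, differed by -0.07 ± 0.07 (limma, adjusted p = 0.51).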

How the data were processed

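The deposited scanner files hold linear spot and local background intensity of the Cy5 channel (1 mouse) and the Cy3 channel (reference pool). Agilent Feature Extraction 10.5.1.1 wrote them, per the file headers. Per the file headers they also hold the log10 ratio of processed signals and other values, which are flags. The value table deposited by the authors holds 25583 rows on what appears to be a log2 scale of the Cy5 signal: every column has a median of 7.58 and correlates across probes at 0.996 to 0.999 with log2 Cy5 of its array. A higher value was therefore read as more signal. How it was corrected and centred is not given in the sources used here, and it served as an alternative.

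Mean signals were corrected by normexp (offset 50) and then by loess, array by array (limma 3.58.1, R 4.3.3). Control and outlier spots had no weight and were then removed, and spots of a probe were averaged. A probe was kept where at least 6 of 13 arrays had it well above the Cy5 background, and the brightest probe stood for a gene. Groups were compared with lmFit and eBayes, two-sided, with Benjamini-Hochberg adjustment over 17257 genes. The dyes were not swapped, and the number of arrays limits the precision. The fit was tested on simulated data. All members are named, array values are given for members past the threshold, and import partners are named where they pass with the 3 largest differences each way. The other partners were named after their values were seen. The members and lists were chosen with earlier results of these data known. Older names were matched through a RefSeq table of GRCm38.p6. Probe coordinates are mm9, per the file headers. Replicate numbers were not taken as pairs: same-numbered arrays of the 2 groups correlated at -0.23 to 0.23.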

Additional observations from a re-analysis of the deposited data

Results flagged for a closer look

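Among 60 sets of arrays (30 genes in each group), Dixon's ratio set 4 values apart, and chance sets about 1 in 20 apart. Ucp1 on the array labelled wild type 4 was 0.45, against -4.23 to -2.82 on the other wild-type arrays. Timm22 on transgenic 6 was -0.42, against -0.06 to 0.16. Tomm40l on transgenic 7 was -0.29, against 0.00 to 0.15. Timm23 on transgenic 7 was -0.17, against -0.38 to -0.29, and that value is still below the lowest wild-type array.

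Of 7 member probes too dim for the comparison, 4 (of Timm22, Timm8a2, Tomm6 and Tomm70a) were well above background on 0 arrays of either group, and the other 3 on some transgenic arrays. The second Tomm7 probe was well above background on 4 of 7 transgenic and 0 of 6 wild-type arrays, although the bright Tomm7 probe was lower in transgenic mice. The Tomm20l probes were above background on 1 and on 2 transgenic arrays and on 0 wild-type arrays. These differences were not tested.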

How the results depend on the processing

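Timm8a1 passed in all 11 alternative fits over 13 arrays and in all 13 leave-one-out fits, with differences of 0.52 to 0.99. Timm10 and Timm23 passed in 10 of the 11 and in all 13, and Timm17b in 9 and in all 13. Tomm7 passed in 9 and in 12, Timm8b in 7 and in 5, and Tomm22 in 6 and in 8.

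Median centring without loess moved the median of all genes to 0.14 and left 1303 calls over all genes, 79.7% of them higher against 51.1% with loess. It left 1 Timm gene higher and 0 lower, 0 Tomm genes in either direction, and 1 import partner higher and 0 lower. Signs then turned for Timm17b (0.026), Timm8b (0.033), Tomm7 (0.033), Timm13 (0.23), Tomm5 (0.25), Tomm34 (0.14), Timm17a (0.24), Tomm6 (0.18), Tomm20 (0.11), Timm10b (0.21), Dnajc15 (0.084), Chchd3 (0.079) and Minos1 (0.033), and Timm23 was at -0.0011. Relative to the shifted median, Timm23, Timm17b, Timm8b and Tomm7 were at -0.14, -0.12, -0.11 and -0.11, and Tomm20 was at -0.035. Timm13, Tomm5, Timm17a, Tomm6 and Tomm34 stayed above that median, by 0.090, 0.11, 0.10, 0.035 and 0.0033. Timm17a minus Timm17b passed there, at 0.22.

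With Agilent's own log ratio 4 Timm genes were higher, and 2 Tomm genes were higher and 2 lower. Tomm5 (0.042), Timm22 (-0.00067), Tomm40l (-0.013) and Timm10b (0.059) changed sign. The authors' deposited values gave 1 Timm gene as lower, 0 Tomm genes in either direction and 3 import partners as lower. Timm13 (0.042), Tomm5 (0.072), Timm17a (0.033) and Timm10b (0.024) changed sign, and Tomm20 minus Tomm22 did not pass, at -0.27. The mean over probes gave 2 Tomm genes higher, 2 lower (Tomm40 and Tomm20 gaining a call) and 2 import partners higher (Grpel1 and Grpel2 losing theirs). With Cy5 alone, and with the slide as a fixed block, 0 Tomm genes were higher. Tomm40 minus Tomm40l, at -0.01 in the main fit, was 0.23 with Agilent's ratio, 0.050 with median centring, 0.11 with Cy5 alone and 0.091 with the value table, and passed in none. With the slide as a block and labels permuted within slides, it was 0.064, Timm17a minus Timm17b passed at 0.14 and Timm9 minus Timm10 did not, at -0.22. Within slides, among the called genes that the text names, Timm8b on the first (0.038) and Ucp1 (-0.13), Hsp90aa1 (0.60) and Dnaja1 (0.43) on the third changed sign. Of the 13 members not called, 5 had the same sign on all 4 slides. The cause of these changes was not tested.

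The replicate block, with transgenic 7 left without a partner, gave 0 Tomm genes higher and ended the calls of Tomm22, Timm8b, Timm21, Dnaja1 and Chchd3. It is given for completeness, since same-numbered arrays did not deviate together.

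Over the 13 leave-one-out fits, the counts were 2 to 2 Timm genes higher and 2 to 3 lower, 0 to 1 Tomm genes higher and 0 to 1 lower, 3 to 5 import partners higher and 4 to 8 lower (4 without wild type 1 and without wild type 6). Differences of pairs were 0.13 to 0.21 for Timm17a minus Timm17b, -0.32 to -0.22 for Timm9 minus Timm10, -0.062 to 0.066 for Tomm40 minus Tomm40l and -0.42 to -0.29 for Tomm20 minus Tomm22. The remaining alternatives, namely outlier spots kept, the filter on all 13 arrays, no filter and the slide as a random block, moved no count by more than 1.5 times. With no filter the calls of Timm8b, Grpel2 and Dnaja1 were nevertheless lost (limma, adjusted p = 0.066, 0.054 and 0.071).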
